A study of Homo sapiens with 6 samples.

Results

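The H/ACA small nucleolar RNAs (snoRNAs) described here are the entries of the expression table whose gene symbol starts with SNORA followed by a digit, of which there were 102 among 34594 entries. Of these, 34 lay above the detection limit on at least 1 array, 14 lay above it on all 6 arrays, and 68 lay under it on every array. The study exposed subclones of PC-3M, a human prostate cancer line derived from PC-3 and able to metastasise, to extracellular ATP and profiled their RNA on Illumina bead arrays. The labels describe 1E8 as the subclone of high and 2B4 as the subclone of low metastatic ability. Both were grown in RPMI medium with 10% fetal bovine serum, and each was profiled without ATP, after 6 h of 100 µM ATP and after 12 h of 100 µM ATP. The time at which the cultures without ATP were taken is not given in the sources used here. Every group was 1 array, and each subclone stands for 1 clonal line, so a difference between the subclones is a difference between these 2 lines.

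H/ACA snoRNAs are short RNAs folded into a pair of hairpins, with a hinge box between the hairpins and an ACA box close to the 3′ end. Each associates with dyskerin, NOP10, NHP2 and GAR1, and its pockets pair with ribosomal or spliceosomal RNA to place the uridine that dyskerin turns into pseudouridine. In human cells most are cut from the introns of other genes, many of which encode ribosomal proteins or translation factors, so a snoRNA and the gene around it start as 1 transcript. Mature H/ACA snoRNAs carry no long poly(A) tail, whereas the labelling kit named in the labels starts from poly(A). Whether an entry read the mature snoRNA, a tailed precursor or an unspliced transcript of the gene around it cannot be told apart in these data.

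The 3 sequences below show what defines the class, the 3′ end with its ACA box, in RNA letters from RefSeq (GRCh38.p14), 5′ to 3′, with the box in capitals. The tables used here give sequence for a member only where an annotated miRNA hairpin overlaps it, and 5 hairpins did so, of which these 3 reach the box. In each of the 3, the box lies 3 bases before the 3′ end of the snoRNA gene. SNORA36A and SNORA36B lay under the limit on all 6 arrays, and SNORA84 lay above it on the 1E8 control array alone.
SNORA36A (61 bases, chrX:154768596-154768656, plus strand, within the DKC1 span): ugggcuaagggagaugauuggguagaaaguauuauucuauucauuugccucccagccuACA
SNORA36B (74 bases, chr1:220200546-220200619, minus strand, within the RAB3GAP2 span): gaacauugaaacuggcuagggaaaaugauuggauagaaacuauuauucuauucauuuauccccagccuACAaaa
SNORA84 (87 bases, chr9:92292461-92292547, minus strand, within the IARS1 span): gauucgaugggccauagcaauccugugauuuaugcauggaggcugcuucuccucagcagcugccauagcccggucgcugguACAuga

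All values are fluorescence intensities in arbitrary units, already background-subtracted by the authors, so an entry with no signal reads close to 0. The detection limit of an array was set at the peak of its dim values plus 3 times their width. It was 29.7 on the 1E8 control array and between 43.3 and 52.3 on the other 5 arrays, so the 1E8 control array admitted more dim entries than the others. All 34 members that passed on any array passed on that one, against 23 and 21 on the 1E8 arrays at 6 and 12 h of ATP, and 17, 20 and 19 on the 2B4 arrays at control, 6 h and 12 h. Over all entries the share above the limit on at least 1 array was 33.5%, and it was 33.3% among the members. On all 6 arrays it was 25.2% over all entries and 13.7% among the members. With 1 common limit of 52.3 for every array, 24 members passed on some array and 11 on all of them. Arrays of the same subclone correlated at 0.983 to 0.991 over all entries and arrays of different subclones at 0.957 to 0.970. The epithelial keratins KRT8, KRT18 and KRT19, EPCAM and VIM lay above the limit on all 6 arrays, while KLK3, the leukocyte gene PTPRC and the fibroblast gene DCN lay under it on all 6. The endothelial marker PECAM1 read between 54.3 and 102 and lay above the limit on all 6 arrays. These are bulk cultures, in which fewer cells making an RNA and less of it per cell cannot be told apart.

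Most detected members were dim, and a few were bright. SNORA61, which lies within the noncoding host gene SNHG12, read 407, 366 and 354 in 1E8 at control, 6 h and 12 h, and 257, 302 and 192 in 2B4 at the same points. SNORA70 read between 186 and 328, SNORA18 between 210 and 260, and SNORA67 between 198 and 242. These 4 members read at least 186 on every array, and each of the other 10 that passed on all arrays read lower than that on at least 1 array. SNORA10 lay between 95.2 and 201, SNORA25 between 56.7 and 192, SNORA64 between 88.3 and 130, and SNORA62 between 85.4 and 107. SNORA11D, SNORA76, SNORA8, SNORA6, SNORA63 and SNORA80 lay between 47.3 and 115. Intensities of different entries come from different probes, so this order describes signal and is not an order of RNA abundance. Of the members that failed on 1 to 5 arrays, the highest single reading was that of SNORA12, 274, and the 68 members that never passed read between -22.8 and 45.8.

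**Figure D1:**
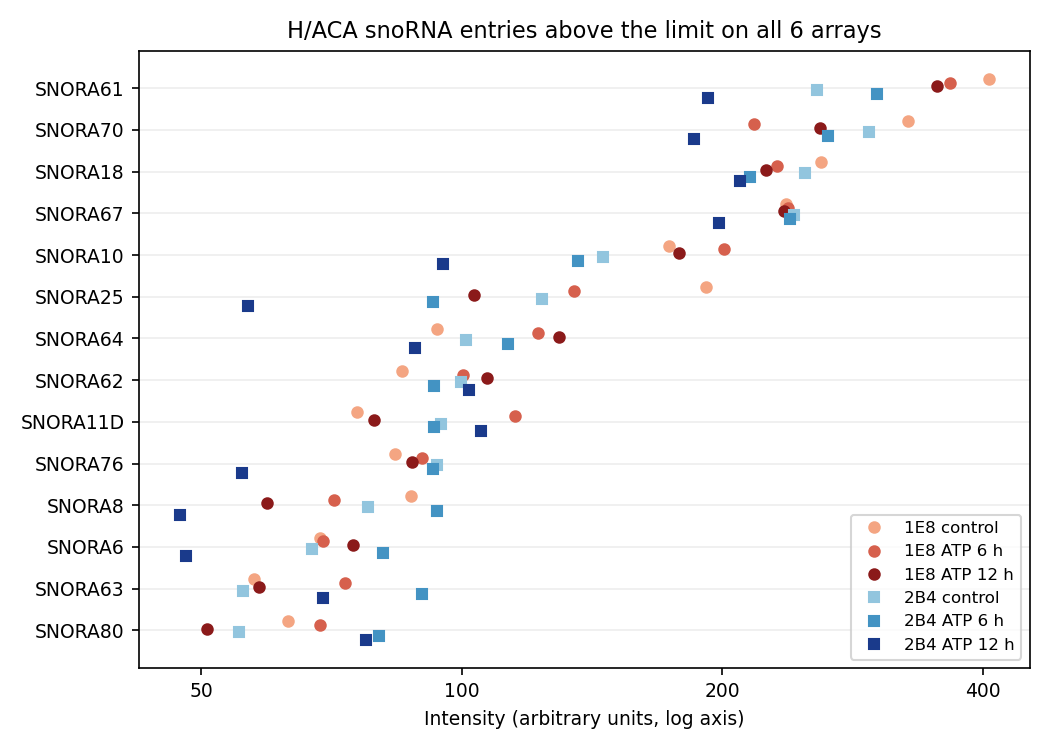
Intensity (arbitrary units, log axis) of the 14 H/ACA snoRNA entries above the detection limit on all 6 arrays, ordered by mean; each point is 1 array, circles are 1E8 and squares are 2B4. SNORA61 separates the subclones most visibly at the bright end (1E8 354 to 407, 2B4 192 to 302), and the array of 2B4 at 12 h of ATP lies at the left for SNORA25, SNORA8, SNORA6 and SNORA10.

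The first question was how the members differed between ATP and control. SNORA12 and SNORA79 read higher with ATP in both subclones, and SNORA25 read lower. The SNORA79 reading in 1E8 at 12 h, 48.5, lay under its limit of 50.1, so a rise there was not measured. SNORA32 also read lower, but it passed the limit on the 1E8 control array alone. Its being tested thus depended on a control array, and the size of its difference was not measured. No entry passed the threshold in limma's test of both ATP times against control over 11140 tested entries (adjusted p under 0.05, 0% called in either direction), and so no member passed. Before adjustment, p was under 0.05 for 3.15% of the tested entries on the higher side and 7.08% on the lower side, and for 3 and 5 of the 34 members. Across the 34 members, 11 log2 differences were positive, and the median was -0.11 against -0.03 over all tested entries, of which 41.9% were positive. The 9 members that passed on the 1E8 control array alone were tested because of a control array. Among the 14 that passed on all 6 arrays, 5 differences were positive, with a median of -0.09 against -0.03 over the 8520 entries that did so. SNORA12, SNORA45, SNORA63, SNORA65 and SNORA79 read higher than their own control on each of the 4 ATP arrays, a rule that 10.2% of tested entries met. SNORA18, SNORA25, SNORA26, SNORA32, SNORA33, SNORA70 and SNORA73A were lower on all 4, a rule that 17.9% met. Of these, SNORA26, SNORA32 and SNORA33 were tested because of the 1E8 control array alone, which favours a lower reading with ATP. Among the 14 members that passed on all 6 arrays, 1 was higher on all 4, against 10.6% of such entries. Lower on all 4 were 3 of the 14, against 17.6%.

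SNORA12 lies within CWF19L1, a gene for a CWF19-like protein. In 1E8 it read 87.3 at control, 211 at 6 h and 163 at 12 h, and in 2B4 it read 41.9, 274 and 236. Every ATP array lay above both control arrays, and the 2B4 control array was the only one on which the entry lay under its limit. The fitted log2 difference, on the scale of log2(intensity + 16), was 1.60 ± 0.27 (SE, 6 arrays) with an adjusted p of 0.227 in limma. Against the limit of the 2B4 control array, 2B4 cells with ATP read at least 5.24-fold higher at 6 h and at least 4.52-fold higher at 12 h. In 1E8 the log2 difference was 1.14 at 6 h and 0.80 at 12 h, and over the 2B4 arrays it was 2.33 and 2.12. Without the 2B4 control array the difference was 0.97, and without the 1E8 control array it was 2.23. CWF19L1 itself read 882, 903 and 851 in 1E8 and 798, 1024 and 885 in 2B4. Its log2 difference was 0.12 ± 0.12 (adjusted p = 0.774, limma), so the gene around SNORA12 showed no difference of the size that SNORA12 showed.

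SNORA79 lies within GTF2A1, which encodes a subunit of the general transcription factor TFIIA. It read 35.9, 66.3 and 48.5 in 1E8 at control, 6 h and 12 h, and 6.47, 138 and 114 in 2B4. The 2 ATP arrays of 2B4 stood apart from the other 4 arrays, and the 2B4 control value was close to that of an empty entry. The fitted log2 difference was 1.57 ± 0.43 (SE, 6 arrays; adjusted p = 0.335, limma), 0.49 without the 2B4 control array and 2.65 without the 1E8 control array. Against the 2B4 control limit, the entry read at least 2.63-fold higher at 6 h and at least 2.18-fold higher at 12 h in 2B4. GTF2A1 lay under the limit on all 6 arrays, so the gene around SNORA79 gave no measurable level to set beside it.

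**Figure D2:**
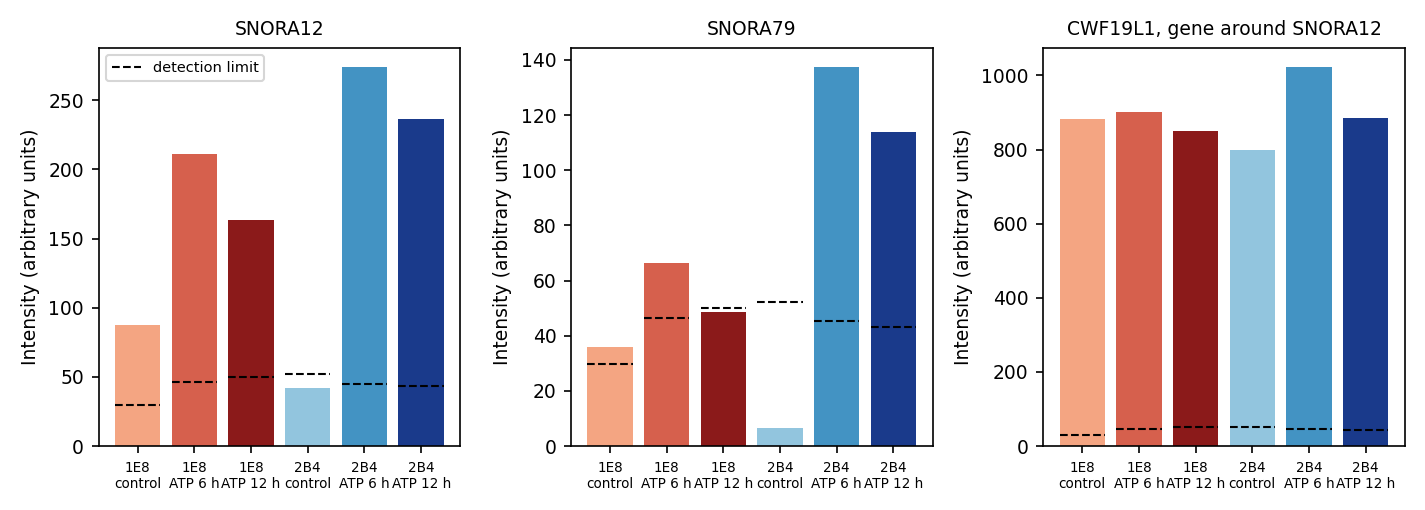
Intensity (arbitrary units, axes from 0 and of different height) of SNORA12, SNORA79 and CWF19L1 on each of the 6 arrays; bars are single arrays and dashed lines are each array's detection limit. The 2B4 control bars of SNORA12 (41.9) and SNORA79 (6.47) lie under their limit of 52.3, while CWF19L1 lies between 798 and 1024 on every array.

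Below is the DNA of the 150 bases before the annotated start of CWF19L1, shown because the transcript that holds SNORA12 starts there (RefSeq, GRCh38.p14, minus strand, 5′ to 3′). Windows were searched on both strands for the E-box (CACGTG), the core of the cyclic AMP response element (TGACG), the CCAAT box (CCAAT) and the AP-1 site (TGACTCA), of which the second and the last share 4 letters. Matches are in capitals and did not overlap. A CCAAT box on the other strand, read here as ATTGG, ends 61 bases before the start, and a response element core ends 45 bases before it. Among 35116 such windows of the reference, 23.5% held the CCAAT box, 15.4% the response element core, 4.57% the E-box and 2.89% the AP-1 site.
CWF19L1 (chr10:100267639-100267788): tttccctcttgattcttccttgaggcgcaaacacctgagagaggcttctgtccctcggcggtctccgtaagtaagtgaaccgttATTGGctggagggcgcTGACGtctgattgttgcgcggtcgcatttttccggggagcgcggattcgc

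Further members on the higher side had smaller fitted differences. SNORA45, within the ribosomal protein gene RPL27A, read 39.1, 61.7 and 52.8 in 1E8 and 38.7, 77.1 and 46.8 in 2B4, with a log2 difference of 0.45 ± 0.13. All 4 ATP arrays lay above both controls, and at 6 h in 2B4 the entry was at least 1.47-fold above the control limit. SNORA63, within EIF4A2, read 57.6, 73.3 and 58.4 in 1E8 and 55.9, 90.1 and 69.2 in 2B4 (log2 difference 0.28 ± 0.12). EIF4A2, the gene of a translation initiation helicase, went the other way, with 3446, 2239 and 2567 in 1E8 and 2819, 2162 and 2069 in 2B4. Its log2 difference was -0.47 ± 0.12 (adjusted p = 0.309, limma), and neither the snoRNA nor its host passed. SNORA65, within RPL12, lay above the limit on the 1E8 control array alone (22.9 to 45.9, log2 difference 0.27 ± 0.12). SNORA64, within RPS2, read 93.6, 123 and 130 in 1E8 and 101, 113 and 88.3 in 2B4, so its ATP arrays did not all lie above control (0.18 ± 0.15).

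On the lower side in the fit lay the tested members within TAF1D, a gene for a subunit of the selectivity factor of RNA polymerase I. They are grouped here because TAF1D spans 6 members, more than any other gene. Their number follows from the annotation and is not a result. Of the 6, SNORA8, SNORA18, SNORA25 and SNORA32 were tested, and SNORA1 and SNORA40 never passed the limit. SNORA25 read 192, 135 and 103 in 1E8 at control, 6 h and 12 h, and 124, 92.7 and 56.7 in 2B4. In each subclone the control array was highest and the 12 h array lowest. The fitted log2 difference of ATP against control was -0.64 ± 0.12 (SE, 6 arrays; adjusted p = 0.227, limma), and leaving out any 1 array kept it between -0.69 and -0.60. SNORA18 read 260, 232 and 225 in 1E8 and 249, 215 and 210 in 2B4, the same order with a smaller step (-0.20). SNORA8 read 87.5, 71.2 and 59.7 in 1E8 but 78.0, 93.7 and 47.3 in 2B4, where the 6 h array was the highest. SNORA32 passed the limit on the 1E8 control array alone, at 47.8 against 10.3 to 21.0 on the other 5 arrays. Its fitted difference was -0.81 ± 0.19 and moved to -0.39 without that array and to -1.22 without the 2B4 control array. TAF1D itself read 52.3 on the 1E8 control array and 24.6 to 31.0 on the others, where it lay under the limit (log2 difference -0.35 ± 0.19, adjusted p = 0.569, limma).

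**Figure D3:**
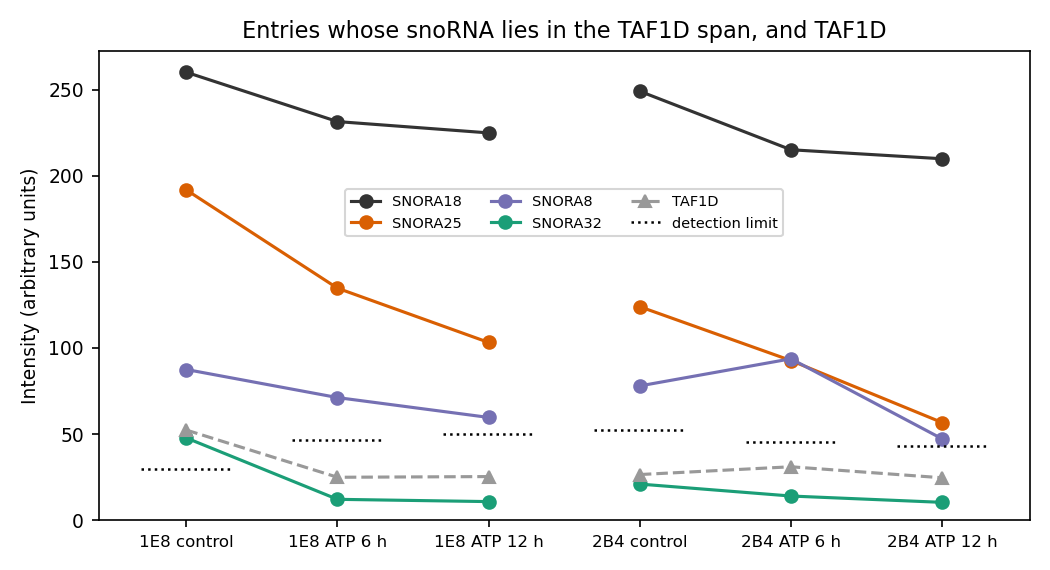
Intensity (arbitrary units, from 0) of SNORA18, SNORA25, SNORA8 and SNORA32, whose genes lie within the TAF1D span, and of TAF1D (dashed grey) on the 6 arrays; points are single arrays, lines join the arrays of 1 subclone and dotted marks are each array's detection limit. SNORA25 declines from 192 to 103 in 1E8 and from 124 to 56.7 in 2B4, while SNORA32 and TAF1D pass the limit on the 1E8 control array alone.

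The same window before the start of TAF1D, shown because 4 tested members share this gene, held none of the 4 motifs on either strand (RefSeq, GRCh38.p14, minus strand, 5′ to 3′).
TAF1D (chr11:93741496-93741645): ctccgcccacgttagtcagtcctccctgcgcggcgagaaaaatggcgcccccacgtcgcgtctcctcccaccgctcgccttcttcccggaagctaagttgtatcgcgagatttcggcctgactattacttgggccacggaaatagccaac

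The remaining low members lay in other genes. SNORA26, within the long noncoding RNA gene DANCR, read 37.9, 22.4 and 18.9 in 1E8 and 46.9, 35.9 and 9.73 in 2B4, with a log2 difference of -0.67 ± 0.19. It lay above the limit on the 1E8 control array alone, and DANCR, deposited under its older symbol KIAA0114, had a log2 difference of 0.16 ± 0.12. SNORA33, within RPS12, read 56.3, 42.3 and 44.0 in 1E8 and 40.6, 27.1 and 14.8 in 2B4 (-0.46 ± 0.16). Like SNORA26, SNORA33 lay above the limit on the 1E8 control array alone, so neither difference has a measured size. SNORA70, within RPL10, was bright throughout and read 328, 218 and 259 in 1E8 and 296, 265 and 186 in 2B4, so both control arrays lay above all 4 ATP arrays (-0.42 ± 0.16). SNORA70 has close relatives elsewhere in the genome, among them SNORA70B and SNORA70C, and how far a probe separates them is not known here. SNORA72, within RPL30, read 31.6 on the 1E8 control array and 9.28 to 17.7 on the others. Its log2 difference of -0.38 ± 0.23 rested on that array and was 0.11 without it.

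The 2 times were also fitted separately. At 6 h against control, 17 of 34 members were positive, with a median of 0.01 against -0.04 over all tested entries. Neither direction had a call (0% of 11140, limma, smallest adjusted p = 0.166), and before adjustment p was under 0.05 for 3.22% on the higher and 6.59% on the lower side, and for 5 and 3 of the members. SNORA12 (1.73 ± 0.31), SNORA79 (1.72 ± 0.50) and SNORA45 (0.63 ± 0.15) were highest, and SNORA32 (-0.74), SNORA25 (-0.41) and SNORA26 (-0.38) lowest. At 12 h, 10 of 34 were positive and the median was -0.14 against -0.04. Again no entry was called (0%, smallest adjusted p = 0.340), with 2.65% higher and 6.52% lower unadjusted, and 2 and 8 among the members. Of those 8, SNORA26, SNORA32 and SNORA33 passed the limit on the 1E8 control array alone, so their being tested depended on a control array. Among the 14 members above the limit on all arrays, 9 were positive at 6 h (median 0.04 against -0.03 over such entries). At 12 h, 5 of the 14 were positive (median -0.18 against -0.03). SNORA12 (1.46), SNORA79 (1.42) and SNORA45 (0.26) led again, and SNORA26 (-0.96 ± 0.22), SNORA25 (-0.87 ± 0.13) and SNORA32 (-0.87 ± 0.22) were lowest. These comparisons share the control arrays. Taken 1 array at a time, on the scale of log2(intensity + 16), a level 2-fold above the own control was met by SNORA12 at 6 h in 1E8 (0.53% of tested entries), by SNORA12 and SNORA79 at 6 h in 2B4 (0.278%) and by the same 2 at 12 h in 2B4 (0.377%). No member met it at 12 h in 1E8 (0.332%). On the same scale a level 2-fold below it was met by SNORA32 and SNORA84 at 6 h in 1E8 (0.817%), by SNORA32 at 12 h in 1E8 (0.512%), by SNORA26 at 12 h in 2B4 (0.323%) and by no member at 6 h in 2B4 (0.332%). All 3 of these members had passed on the 1E8 control array alone, and each low reading lay under its array's limit, so the size of these differences was not measured. SNORA25 at 12 h in 2B4, above the limit on both arrays, read 56.7 against 124, a log2 difference of -0.95 on this scale.

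Between the 2 ATP times, which involves no control array, the members leaned one way. At 12 h, 31 of 34 were lower than at 6 h, whereas 50.6% of all tested entries were higher, and the median was -0.21 against 0.00 for all entries. Of the 14 members above the limit on all 6 arrays, 13 were lower at 12 h. Their median was -0.22 against -9.3e-05 over the 8520 entries above it on all 6. No entry passed in either direction (0% of 11140, limma, smallest adjusted p = 0.327), and before adjustment p was under 0.05 for 3.34% on the higher and 3.62% on the lower side, and for 1 and 4 of the members. In 2B4, 28 of 34 were lower, against 48% of all tested entries, with a median of -0.31 against 0.01. In 1E8, 24 of 34 were lower, against 50.9% of all tested entries, with a median of -0.09 against 0.00. Of the 14, 12 were lower in 2B4 (median -0.385) and 10 in 1E8 (median -0.0435), so the lean was mostly that of 2B4. The 2B4 array at 12 h read lowest of all 6 for SNORA6, SNORA8, SNORA10, SNORA18, SNORA25, SNORA61, SNORA64, SNORA67, SNORA70 and SNORA76. How many of all tested entries read lowest on that array was not counted, so this list is not a result by itself. In both subclones together, 21 of 34 were lower, a rule that 29.1% of tested entries met, and 9 of the 14. Leaving out 1 array kept the median below 0, between -0.35 without the 1E8 array at 6 h and -0.09 without the 2B4 array at 6 h.

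The lowest fitted differences of 12 h against 6 h were those of SNORA26 (-0.57 ± 0.22), SNORA8 (-0.50 ± 0.17) and SNORA25 (-0.46 ± 0.13), with adjusted p-values of 0.664, 0.637 and 0.610 in limma. All 4 ATP readings of SNORA26 lay under their limits, so its difference has no measured size. Leaving out 1 array moved SNORA26 between -0.959 and -0.189, SNORA8 between -0.765 and -0.234 and SNORA25 between -0.556 and -0.363. The 3 members on the other side were SNORA84 (0.42), SNORA56 (0.35) and SNORA62 (0.10), and all 4 ATP readings of SNORA84 lay under their limits. SNORA56, within DKC1, the gene of dyskerin itself, read 40.3, 29.3 and 46.6 in 1E8 and 63.6, 45.0 and 55.5 in 2B4, and was lowest at 6 h in both. Of its ATP readings, only that of 2B4 at 12 h lay above its limit, so the size of this difference was not measured. SNORA62, within RPSA, read 85.4, 100.4 and 107 in 1E8 and 99.8, 92.9 and 102 in 2B4, a narrow range without a common order. SNORA84 read 40.9, 11.8 and 29.1 in 1E8 and 20.0, 28.1 and 32.3 in 2B4, and its difference was -0.06 without the 1E8 array at 6 h.

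**Figure D4:**
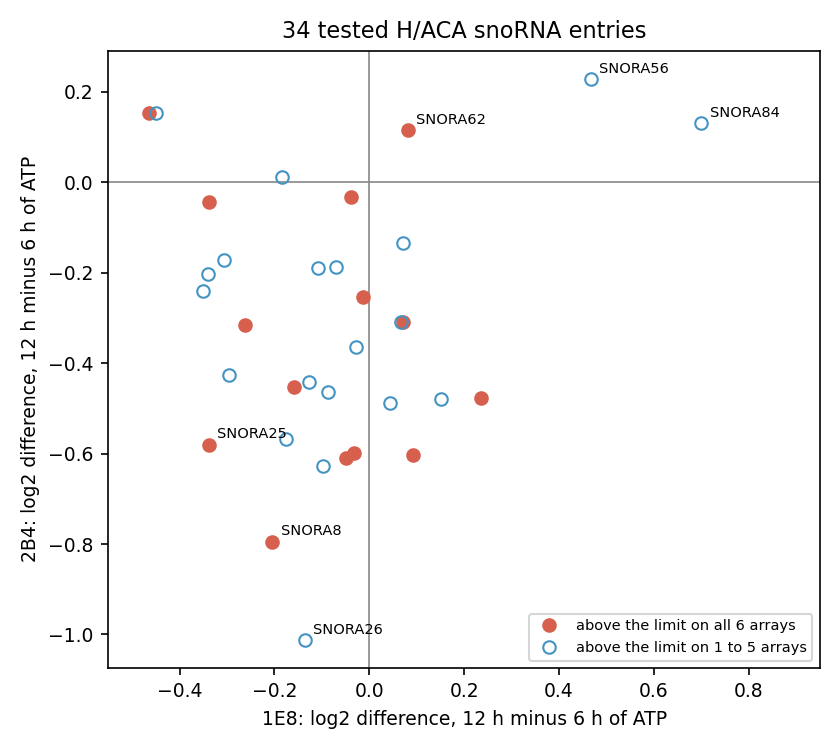
Log2 difference between 12 h and 6 h of ATP, on the scale of log2(intensity + 16), for the 34 tested H/ACA snoRNA entries in 1E8 (horizontal) and 2B4 (vertical); each point is 1 entry from 1 pair of arrays per subclone, filled where it passed the limit on all 6 arrays. At the lower left, under both zero lines, lie the 21 entries that were lower at 12 h in both subclones, and SNORA56, SNORA62 and SNORA84 are higher at 12 h in both.

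The second question was how the subclones differed. In the additive fit over 6 arrays, 9 of 34 members were higher in 1E8 than in 2B4 and none lower, against 9.08% of all tested entries called higher and 7.93% called lower (adjusted p under 0.05, limma). SNORA70B, SNORA57, SNORA66, SNORA41, SNORA73A, SNORA25, SNORA33, SNORA61 and SNORA10 were the 9. Before adjustment, p was under 0.05 for 13 members on the higher and 1 on the lower side, against 17.8% and 15.5% of tested entries. Across the 34, 23 differences were positive, against 51.8% of all tested entries, and the median was 0.12 against 0.01. All 34 had passed the limit on the 1E8 control array, which has the lowest limit. Among the 14 members above the limit on all arrays, 10 were positive, with a median of 0.10 against -0.002 over such entries. Of the 9 called members, SNORA33, SNORA41 and SNORA66 passed the limit on the 1E8 control array alone, and SNORA70B and SNORA73A passed on 1E8 arrays alone, so their being tested already depended on 1E8. Among the 14 members above the limit on all arrays, SNORA10, SNORA25 and SNORA61 were called, against 6.74% of the 8520 such entries called higher. The count was 5 with an offset of 4, 0 with no filter on dim entries, where no entry of the whole table was called, and 3 without either 12 h array.

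Of the 14 members above the limit on all arrays, SNORA61 and SNORA10 were those whose 1E8 arrays all lay above all 2B4 arrays. SNORA61 at 354 to 407 in 1E8 against 192 to 302 in 2B4 gave a log2 difference of 0.57 ± 0.14 (SE, 6 arrays; adjusted p = 0.0326, limma). SNORA10, within RPS2, read 174, 201 and 178 in 1E8 and 146, 136 and 95.2 in 2B4 (0.51 ± 0.14, adjusted p = 0.0468, limma). RPS2 had a log2 difference of 0.15 ± 0.13 (adjusted p = 0.502). SNORA25 was higher in 1E8 in each of the 3 conditions (0.58 ± 0.11, adjusted p = 0.0157, limma), although its 1E8 array at 12 h lay under the 2B4 control. SNHG12, around SNORA61, passed the limit on 1 array only.

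SNORA70B, within the deubiquitinase gene USP34, had the highest fitted difference, but against readings under the limit. It read 57.4, 60.6 and 55.1 in 1E8, above the limit on each array, and 23.6, 13.9 and 10.2 in 2B4, under the limit on each. The fitted log2 difference was 1.23 ± 0.14 (adjusted p = 0.00296, limma). Measured against the limits, the entry was at least 1.23-fold higher in 1E8, and no larger size is given by the data. USP34 was also higher in 1E8, at 188, 211 and 220 against 146, 126 and 131 (0.56 ± 0.12, adjusted p = 0.0239, limma). SNORA70C, within ASTN2, read 34.7, 45.3 and 52.1 in 1E8 and 27.5, 26.5 and 14.5 in 2B4 (0.64 ± 0.18), and with an adjusted p of 0.0581 it was not called. ASTN2 lay under the limit on all 6 arrays.

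SNORA57, which lies in both LBHD1 and CSKMT, read 71.6, 75.5 and 70.2 in 1E8 and 29.5, 47.2 and 29.8 in 2B4 (0.80 ± 0.13, adjusted p = 0.00919, limma). It passed the limit on all 1E8 arrays and on the 2B4 array at 6 h. SNORA66, within RPL5, read 34.7, 42.9 and 27.1 in 1E8 and 14.5, 12.2 and 15.4 in 2B4 (0.75 ± 0.14, adjusted p = 0.0155, limma). RPL5 had a log2 difference of -0.04 ± 0.12, and DIPK1A (deposited as FAM69A), which also spans SNORA66, was lower in 1E8 (-0.72 ± 0.13, adjusted p = 0.0156, limma). SNORA41, within the elongation factor gene EEF1B2, read 51.4, 42.2 and 45.1 in 1E8 and 24.6, 26.0 and 22.3 in 2B4 (0.63 ± 0.11, adjusted p = 0.0135, limma). EEF1B2 had a difference of 0.32 ± 0.11 that was not called (adjusted p = 0.0937). Both SNORA66 and SNORA41 passed the limit on the 1E8 control array alone, so the size of their differences was not measured.

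SNORA73A belongs, with SNORA73B, to the U17 family, which acts in the processing of the small ribosomal subunit RNA rather than in its modification. It read 50.8, 49.4 and 45.2 in 1E8 and 36.8, 30.8 and 14.3 in 2B4 (0.61 ± 0.15, adjusted p = 0.0376, limma). SNORA73B read 58.7, 72.7 and 55.7 in 1E8 and 57.7, 42.9 and 36.3 in 2B4, and was not called (0.36 ± 0.14, adjusted p = 0.129). The pair is similar in sequence and lies in the same genes, SNHG3 and RCC1, both under the limit on all 6 arrays, so the split of signal between them is uncertain. SNORA33 was called at 0.58 ± 0.15 (adjusted p = 0.0391, limma), whereas RPS12 around it had a difference of 0.10 ± 0.10. SNORA33 passed the limit on the 1E8 control array alone, and SNORA73A on that array and the 1E8 array at 6 h. The size of their differences was therefore not measured.

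On the side of 2B4, SNORA56 was the only member that was lower in 1E8 in all 3 conditions (-0.37 ± 0.11, adjusted p = 0.0701, limma). In 1E8 it passed the limit on the control array alone, and in 2B4 at control and at 12 h. A lower reading in every condition was met by 25.1% of tested entries, and a higher one by 28.2%, with 15 members doing so. Among the 14 members above the limit on all arrays, 4 were higher in every condition, against 26.4% of such entries. None of the 14 was lower in every condition, against 27.2%. DKC1 around SNORA56 had nearly the same difference, -0.35 ± 0.12, with 2998, 2390 and 2242 in 1E8 and 3286, 3472 and 2948 in 2B4 (adjusted p = 0.0940, limma). SNORA79 (-0.24), SNORA7B (-0.22), SNORA80 (-0.17), SNORA63 (-0.14) and SNORA11D (-0.12) followed, each with arrays of both subclones overlapping. No member had every 1E8 array under every 2B4 array, which 17.3% of tested entries had. For 10 members every 1E8 array lay above every 2B4 array, against 18.9% of tested entries. They were the called members other than SNORA25, together with SNORA42 and SNORA70C. Of these, SNORA33, SNORA41, SNORA42, SNORA66, SNORA70B, SNORA70C and SNORA73A passed the limit on 1E8 arrays alone, so their being tested already depended on 1E8. Among the 14 members above the limit on all arrays, 2 met this rule, against 17.3% of such entries. SNORA42, within KHDC4, read 33.9 to 44.9 in 1E8 and 22.6 to 33.6 in 2B4.

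**Figure D5:**
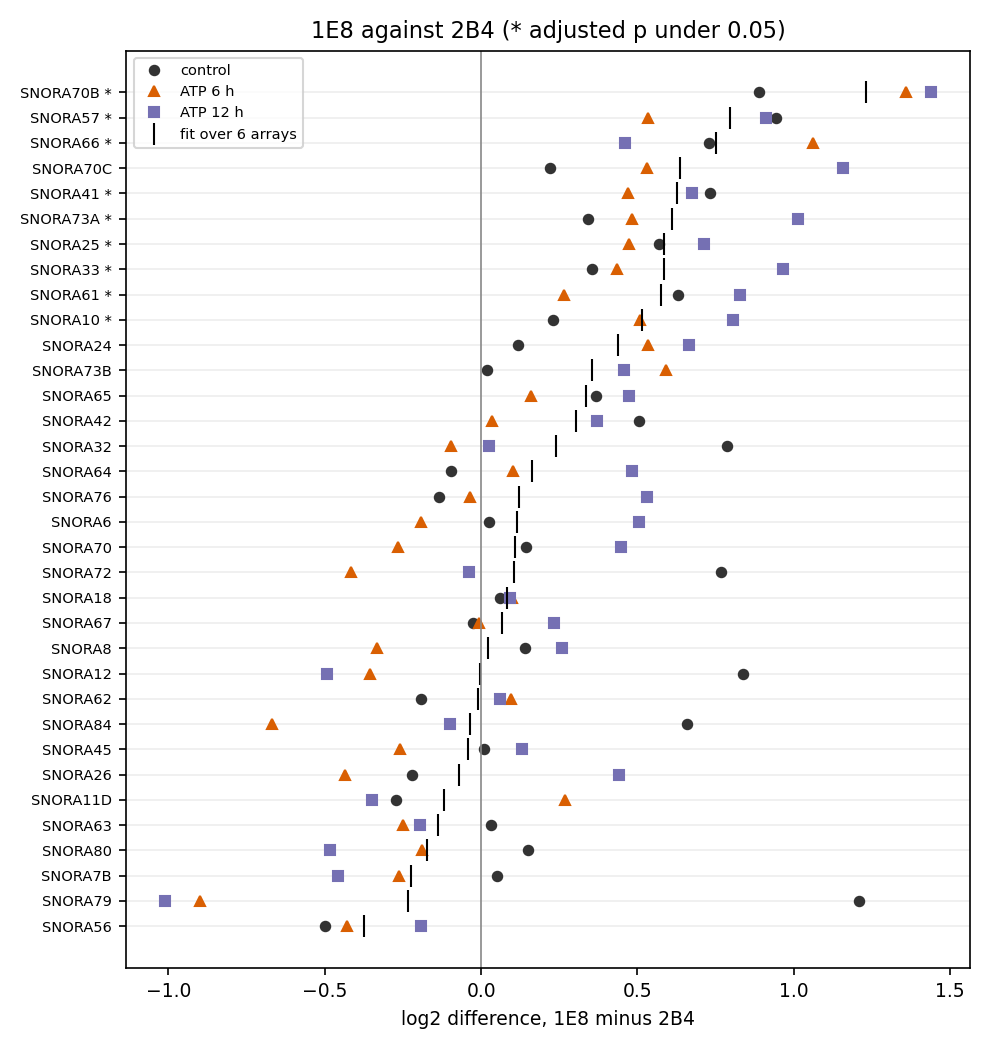
Log2 difference of 1E8 minus 2B4, on the scale of log2(intensity + 16), for the 34 tested H/ACA snoRNA entries in each of the 3 conditions (points, 1 pair of arrays each) and as fitted over 6 arrays (vertical ticks); asterisks mark the 9 entries with an adjusted p under 0.05. SNORA70B has the highest fitted value, 1.23, with its 2B4 readings under the limit, and SNORA79 spans from -1.01 at 12 h of ATP to 1.21 at control.

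The difference in ATP response between the subclones was tested with an interaction term, which leaves 1 residual degree of freedom. One of the 11140 entries was called (0.00898%, higher in 1E8; 0% lower), and no member was. Unadjusted, 5.50% of entries were higher and 13.2% lower, and among the members 3 and 5. SNORA79 came closest, with an ATP effect of 0.49 in 1E8 and 2.65 in 2B4, a difference of -2.16 ± 0.18 (adjusted p = 0.0697, limma). The 2B4 control and the 1E8 array at 12 h lay under their limits, so the size depends on the offset and ranged from -3.02 to -1.32 over 8 other settings. It was called under 4 of these 8, an offset of 50, a limit at 5 widths, a mean-variance trend and 1 common limit, and its adjusted p ranged from 0.000407 to 0.280. SNORA12 had 0.97 and 2.23 (-1.26 ± 0.18, adjusted p = 0.138) and was called with an offset of 50 and with a trend. SNORA84 had -0.68 and 0.36 (-1.04 ± 0.27, adjusted p = 0.177). On the other side lay SNORA70C (0.62), SNORA70B (0.51) and SNORA73B (0.50). The median over the members was 0.03 against -0.07 over all entries, and scaling the arrays to 1 median moved the latter to 0.05.

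Genes of the H/ACA particle and its assembly were read beside the snoRNAs. All 12 of the list were tested, and none was called for ATP, where 5 differences were positive and the median was -0.02. DKC1, NOP10, NHP2 and GAR1, the core of the particle, lay above the limit on all 6 arrays. At 12 h against control 2 of 12 were positive, with a median of -0.18, where 42.2% of all tested entries were positive with a median of -0.04. Between the subclones 1 was called, SHQ1, a chaperone of dyskerin, which was lower in 1E8 (189, 202 and 148 against 238, 267 and 236, log2 difference -0.44 ± 0.12, adjusted p = 0.0453, limma). This 1 of 12 stands beside the 7.93% of all tested entries called lower. NOP10 had a difference of 0.40 ± 0.11 in the other direction (3268, 3098 and 3339 against 2182, 2536 and 2633, adjusted p = 0.0559). The assembly factors RUVBL1, RUVBL2 and NOLC1, the end-trimming enzyme PARN and the poly(A) polymerase TENT4B (deposited as PAPD5) passed the limit on every array, and none was called. NAF1 passed on 3 arrays and NUFIP1 on 1. TENT4B, which adds short tails to snoRNA precursors, was lower at 12 h than at 6 h in both subclones (501 and 385 in 1E8, 470 and 351 in 2B4, log2 difference -0.38 ± 0.13, adjusted p = 0.633, limma).

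Hosts and snoRNAs could be set side by side for part of the set. Of the 34 tested members, 33 lie within the annotated span of another gene, 5 of them in 2 genes, and SNORA76 lies in none. SNORA24, within SNHG8, had an ATP difference of -0.30 and SNHG8 had -0.31 ± 0.13. SNORA24 read 71.7, 77.1 and 59.8 in 1E8 and 64.8, 48.3 and 31.9 in 2B4, and it is known as a guide for the small subunit RNA. For SNORA26 the subclone difference was -0.07, whereas DANCR was lower in 1E8 at -0.96 ± 0.11 (adjusted p = 0.00358, limma). SNORA6 and SNORA62 share RPSA, and their ATP differences were -0.01 and 0.10 against 0.13 ± 0.12 for RPSA. MAGED4 around SNORA11D, RPL10 around SNORA70 and RPL32P3 around SNORA7B lay under the limit on all 6 arrays, so the entry for the snoRNA was the brighter of each pair. RPL10 read between -14.6 and 0.86, whereas RPS2, RPS12, RPL27A, RPSA, RPL12, RPL5 and RPL30 read at least 4162 on every array. Whether the RPL10 entry reports its gene was not tested, so its reading gives no host level to set beside SNORA70. SNORA7B read 54.3, 47.7 and 40.1 in 1E8 and 51.9, 60.4 and 61.0 in 2B4. SNORA80, within URB1, read 50.9 to 68.5 in 1E8 and 55.3 to 80.3 in 2B4, and URB1 passed on 1 array.

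Among the 14 members above the limit on all arrays, SNORA63 was highest and SNORA25 lowest in the ATP comparison, and entries with the most similar pattern over the 6 arrays were looked up among 8519 others. SNRK (Pearson r = 0.996), COQ10A (0.989) and GTSE1 (0.976) were closest to SNORA63. PHB2 (0.995), LOC650369 (0.992) and ELP4 (0.989) were closest to SNORA25. With 6 points and many entries compared, these are descriptions and no test was made.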

How the data were processed

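Total RNA for 6 arrays (1 array per group) was labelled from poly(A) with an Illumina TotalPrep kit and hybridised to Illumina bead arrays, per the labels. The deposited intensity table gives 1 value per symbol, background-subtracted on a common scale by the authors; how is not given in the sources used here. A table with 12 columns whose names match no sample was not used. Values below 0 were set to 0, 16 was added and log2 taken. The detection limit of an array was the peak of its values under 100 plus 3 widths. After 3270 sequence-cluster entries and 366 entries sharing a gene with a brighter one were left out, 11140 entries above the limit on at least 1 array were fitted with limma 3.58.1 (R 4.3.3): subclone plus condition (2 residual degrees of freedom), or with a subclone by ATP term (1). P-values were adjusted by Benjamini-Hochberg over all 11140. With 1 array per group the error is the departure from additivity, and whether arrays came from separate cultures is not stated. The number of arrays limits the precision. Of the 102 symbols, 92 were current in RefSeq and 10 matched 1 older synonym each. Hosts were taken from annotated spans without strand. The code was tested on simulated data. Members and lists were chosen with earlier results of these data known. Named were all members above the limit, log2 differences for the 6 highest and 6 lowest members (ATP, subclone) or 3 and 3 (other comparisons), host genes, a list of 12 H/ACA protein genes, and the 3 entries most like 2 members. Alternatives were the offset, scaling, filters, limits, a variance trend and leaving out each array.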

Additional observations from a re-analysis of the deposited data

Results flagged for a closer look

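For 5 members both ATP arrays of 1E8 lay on one side of the 1E8 control and both ATP arrays of 2B4 on the other side of the 2B4 control. The difference itself was tested with the interaction term, and none of the 5 passed. How many of all tested entries met the same rule was not counted, so the number of members is not a result by itself. On the log2 scale the 1E8 effect of ATP exceeded the 2B4 effect by 0.427 for SNORA10 (adjusted p = 0.324, limma; 0.11 in 1E8 and -0.31 in 2B4), 0.623 for SNORA70C (adjusted p = 0.307; 0.35 and -0.27) and 0.382 for SNORA76 (adjusted p = 0.478; 0.07 and -0.31). The same difference, 1E8 minus 2B4, was -0.411 for SNORA7B (adjusted p = 0.306; -0.23 and 0.18) and -1.04 for SNORA84 (adjusted p = 0.177; -0.68 and 0.36). SNORA10 and SNORA76 lay above the limit on all 6 arrays, SNORA7B on 4, SNORA70C on 2 and SNORA84 on 1. Each subclone contributed 1 control array, so every one of these signs rests on that array.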

How the results depend on the processing

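No paired analysis was possible because the groups compared share only 1 replicate number; the subclone, which every fit holds as a term, is the pairing used. Fits that leave out an array match the remaining array of that condition exactly, so calls they gain add no support. Members called for ATP ranged from 0 to 3 on leaving out each array: 2 without the 1E8 control, 2 without the 1E8 array at 6 h and 3 without the 2B4 array at 6 h, with 0 otherwise. The 6 h and 12 h counts ranged from 0 to 2 each. The count for 1E8 against 2B4 (9) ranged from 3, without either 12 h array, to 13, without either control, and was 5 with an offset of 4, 0 without a filter (0 of all entries called) and 3 of 14 among entries above the limit on all arrays. The cause was not tested, beyond the fewer members of the last. With 1 common limit, an alternative chosen after seeing the data, it was 6 of 24. Interaction calls (0) were 2 with an offset of 50 (332 of all entries), 1 with a limit at 5 widths (21), 2 with a mean-variance trend (735) and 1 with the common limit (14), against 1 of all entries in the reported fit; the cause was not tested. The interaction could not be fitted without a control array, and without another array it left no degrees of freedom and so no test. On leaving out each array the ATP median (-0.11) ranged from -0.157 to -0.0348, the 6 h median (0.01) from -0.0665 to 0.0751, so that its sign turned, and the 12 h median (-0.14) from -0.267 to -0.0919. The subclone median (0.12) ranged from 0.14 to 0.27 and the interaction median (0.03) from -0.21 to 0.13 on leaving out each array. Signs reversed for SNORA64 (-0.0135) and SNORA72 (0.114) in the ATP comparison without the 1E8 control (up to 0.374 and down to -0.881 without the 2B4 control), for SNORA84 at 12 h against 6 h (-0.0581) without the 1E8 array at 6 h (0.889 without the 2B4 array at 6 h), and for SNORA79 between subclones without either 6 h array (0.0973) or either 12 h array (0.153; -0.956 without either control). No other sign reversed among the named differences. Entries near the limit have little signal over background, and the offset understates the changes of dim members.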
